A study of Mus musculus with 5 samples.

Results

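The members are the probe sets of 9 transcription factor genes: the Fos family genes Fos, Fosb, Fosl1 and Fosl2, the Jun family genes Jun, Junb and Jund, the related gene Atf3, and Egr1. They were chosen by name, as every probe set whose only gene symbol in the platform annotation is one of these. This gave 13 of the 45101 probe sets on the array, with 2 probe sets each for 4 genes and 1 each for the other 5. RNA from 4 mouse medulloblastomas, tumours of the cerebellum, and from 1 P5 mouse cerebellum (read as postnatal day 5) had been hybridised to Affymetrix arrays. The labels give no genotype, treatment or age for the single tumours, although the series title names Cxcr6 mutant mice and a Smoothened inhibitor; they do not say whether material was pooled. The cerebellum has no replicate, and tumour status and age cannot be told apart here.

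Fos and Jun proteins bind DNA as pairs, joined by leucine zippers, and the pair is the factor AP-1. Jun proteins can pair with each other, whereas Fos proteins need a partner such as Jun. Immediate early genes among the members include Fos, Fosb, Junb, Atf3 and Egr1. A growth factor, neuronal firing or stress turns such genes on without new protein synthesis, and the RNA is soon lost again. In brain, Fos and Egr1 RNA is widely used as a sign of recent neuronal activity, and both also respond to how tissue is handled. Time and manner of dissection are not in the labels, so their part in any level below was not tested.

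Values are signals on a linear scale, with each array at a trimmed mean of 500.002. Differences are medulloblastoma minus P5 cerebellum in log2(signal + 32), which understates changes of dim probe sets, and errors after ± are standard errors from limma. A probe set was tested if its mean over the 5 arrays was at least 100, and was called at a Benjamini-Hochberg adjusted p under 0.05 over all 31416 probe sets tested. Of the 13 members 11 were tested; both Fosl1 probe sets were too dim. Only 1 of the 11 was called, a Fosl2 probe set, against 0.21% of all probe sets tested, 0.137% as higher and 0.0732% as lower. On the titles, medulloblastomas 1 and 2 carry the prefix ken and the other 3 arrays hmk; its meaning is not given, and values are also shown within it. Medulloblastoma 1 had the highest 3' to 5' signal ratios, which rise as RNA breaks down. They were 1.45 for actin and 0.946 for Gapdh there, and at most 1.35 and 0.824 elsewhere. Their part in the values of that array was not tested. The spread comes from the tumours alone, and the smallest p that an exact permutation test allows here is 0.2.

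**Figure D1:**
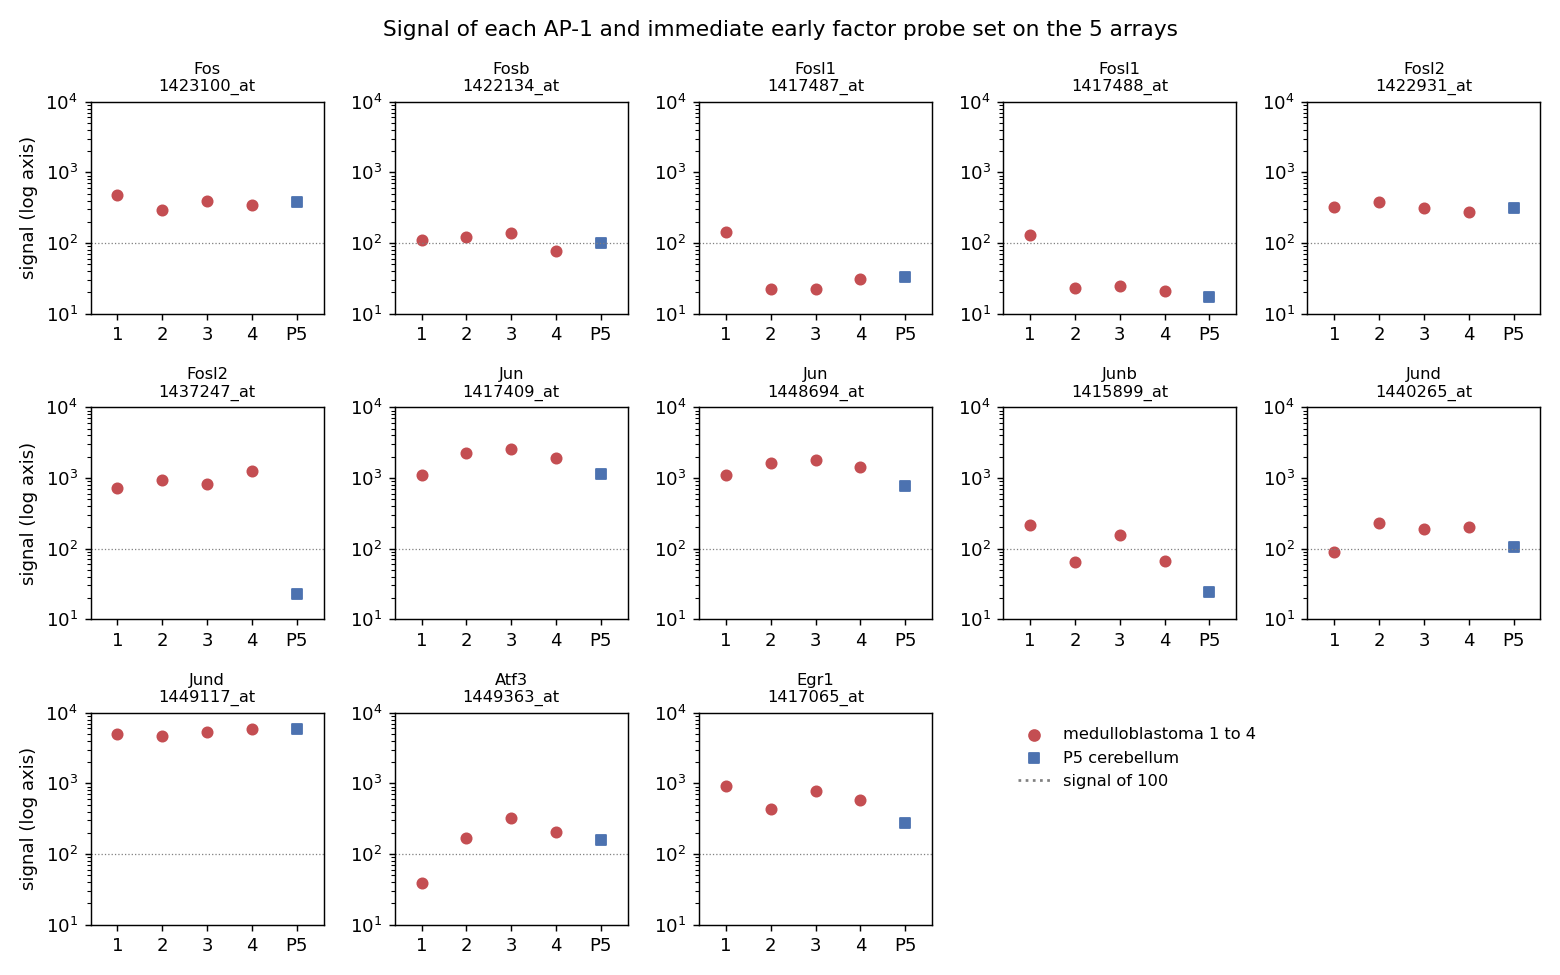
Signal (log axis) of each of the 13 probe sets in medulloblastomas 1 to 4 (red circles) and the P5 cerebellum (blue squares); the dotted line marks a signal of 100. Fosl2 1437247_at lies between 714 and 1235 in the tumours and at 22.7 in the cerebellum, and both Fosl1 probe sets stand out in medulloblastoma 1.

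Fosl2 encodes Fra-2, a Fos family protein that lacks the strong activation domain of Fos. Its probe set 1437247_at read 714, 933, 830.2 and 1235 in medulloblastomas 1 to 4, against 22.7 in the P5 cerebellum. All 4 tumours were far above the cerebellum, whose signal was not shown to be above background, so no fold of signals is given. The log2 difference was 4.11 ± 0.37 (limma, adjusted p = 0.0244), the third smallest p of all probe sets tested. In the cerebellum 8.60% of the probe sets on the array were dimmer than this one, and in the tumours 77.9% to 87.5% were. The cerebellum signal lies below the constant of 32, and this probe set passed the signal filter through the tumours alone.

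The other Fosl2 probe set, 1422931_at, showed no such difference. It read 319, 386, 316 and 278 in the medulloblastomas against 309.6 in the P5 cerebellum, which lay inside the range of the tumours. The difference was 0.05 ± 0.35, with a 95% confidence interval from -0.75 to 0.86 and an adjusted p of 0.960 (limma). The platform annotation ties 1422931_at to a RefSeq mRNA of Fosl2, and 1437247_at to a sequence record that is not among the RefSeq transcripts of the gene. This does not set 1437247_at apart, as only 7 of the 13 member probe sets are tied to a RefSeq mRNA. Those of Fos and Atf3 are not. The part of the gene that each Fosl2 probe set detects was not known here, so the Fosl2 change holds for 1 probe set and not for the gene.

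The Fosl2 call depended on single arrays and on the variance model. Without medulloblastoma 2, 3 or 4 the difference stayed between 3.96 and 4.15 but was not called (limma, adjusted p = 0.0688, 0.0707 and 0.110). Those fits called only 3, 2 and 0 of all 31416 probe sets, in that order. Without medulloblastoma 1 the difference was 4.22 and was called (adjusted p = 0.00145), in a fit that called 3.96% of all probe sets. With no trend of variance with signal the adjusted p was 0.134, a setting in which no probe set of the array was called and 1895 were higher and 1880 lower at an unadjusted p under 0.05. Within the hmk arrays the difference was 4.26 and was called (limma, adjusted p = 0.00031), in a fit that called 8.01% of all probe sets. With the ken tumours against the same cerebellum it was 3.96 and was not called (adjusted p = 0.120), in a fit that called 0 of all probe sets.

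**Figure D2:**
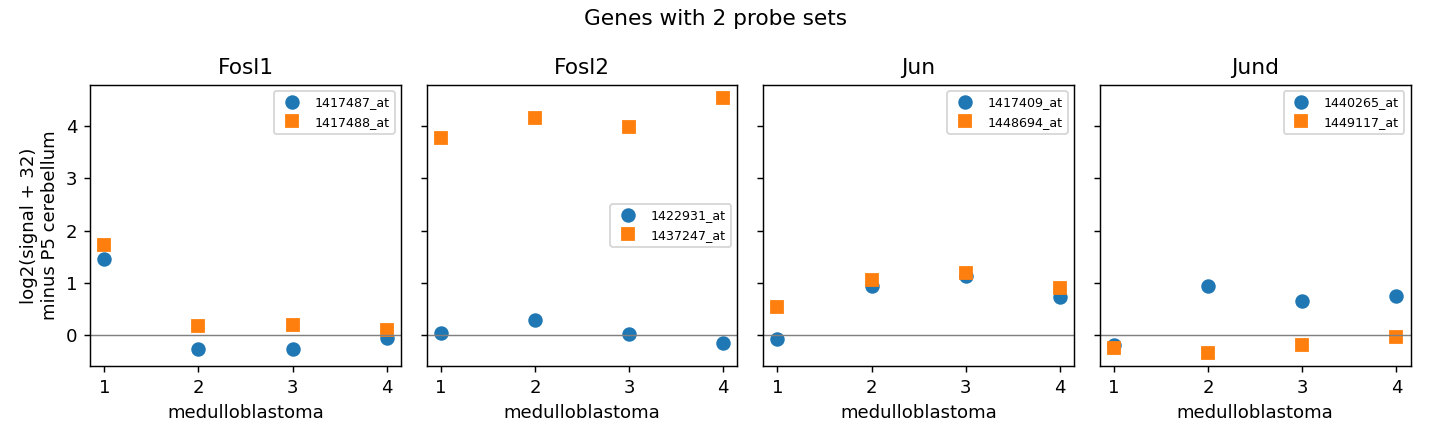
Difference from the P5 cerebellum in log2(signal + 32) for each medulloblastoma (x axis), for the 4 genes with 2 probe sets (circles and squares). The Fosl2 probe sets lie 3.73 to 4.67 apart in every tumour, and the Jun probe sets 0.05 to 0.60 apart.

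Fos, the Fos family gene most used as a sign of recent stimulation, did not pass the test. Its single probe set read 479, 291, 390.4 and 348 in the medulloblastomas and 377 in the P5 cerebellum. The cerebellum lay among the tumours, above medulloblastomas 2 and 4 and below 1 and 3. The difference was -0.02 ± 0.37 (limma, adjusted p = 0.988), with a 95% confidence interval from -0.86 to 0.82. A change of either sign within that interval cannot be told from 0 here, and the interval is not the detection limit of the adjusted test. Its sign changed with quantile scaling and with equal medians, where it was 0.10 and 0.16.

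Fosb, a Fos family gene known for a stable short form that builds up in neurons after repeated stimulation, was dim. It read 109, 120.5, 137 and 78.2 in the medulloblastomas and 99.2 in the P5 cerebellum. These groups overlap, and the difference was 0.11 ± 0.60 (limma, adjusted p = 0.952).

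Fosl1, which encodes Fra-1, stood out in 1 tumour at both probe sets. Probe set 1417487_at read 146, 22.2, 22.5 and 31.1 in medulloblastomas 1 to 4 and 33.0 in the cerebellum. Probe set 1417488_at read 130.2, 23.1, 24.4 and 20.7 in the medulloblastomas and 17.0 in the P5 cerebellum. At these probe sets the next array after medulloblastoma 1 read 33.0 and 24.4, and all other signals were at most 33.0, about the constant of 32. The mean differences of 0.22 and 0.55 therefore rest on medulloblastoma 1 and were not tested.

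Jun, the main partner of Fos proteins, did not pass the test at either probe set. Probe set 1448694_at read 1113, 1620.0, 1767 and 1439 in the medulloblastomas against 758 in the P5 cerebellum. All 4 tumours lay above it, by 1.47- to 2.33-fold. The difference was 0.92 ± 0.31, with a 95% confidence interval from 0.21 to 1.64, an unadjusted p of 0.0176 and an adjusted p of 0.292 (limma). Probe set 1417409_at read 1096, 2243, 2551 and 1920.0 in the medulloblastomas against 1145 in the P5 cerebellum. Here medulloblastoma 1 was just below the cerebellum and the other 3 were higher, and the difference was 0.69 ± 0.42 (adjusted p = 0.517).

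Both Jun probe sets order the tumours alike, with medulloblastoma 3 highest and 1 lowest. Within the hmk arrays, which hold medulloblastomas 3 and 4 and the cerebellum, the differences were 1.04 and 0.93 and both were called (limma, adjusted p = 0.0361 and 0.0472). The spread in that fit rests on 1 pair of tumours, and it called 8.01% of all probe sets, 4.51% as higher. With the ken tumours the same differences were 0.80 and 0.44 and were not called (adjusted p = 0.568 and 0.785). The difference between the ken and hmk tumours was not tested.

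Upstream sequences are shown for Jun, whose promoter is known to hold an AP-1-like site through which Jun acts on its own gene, for Fos, the classical immediate early promoter, and for Fosl2, whose probe sets disagreed. Each is the 250 bases before the gene's RefSeq start on GRCm38.p6, in the direction of transcription, at chr4:95052223-95052472 (minus strand) for Jun, chr12:85473640-85473889 (plus strand) for Fos and chr5:32136222-32136471 (plus strand) for Fosl2. Capitals mark matches to TGANTCA (the AP-1 site), TGACGTCA (the cyclic AMP response element), TGACATCA (the site in Jun) or TGACG (the start of the response element, contained in TGACGTCA), each on both strands, and to TATAAA on the strand shown.
Jun: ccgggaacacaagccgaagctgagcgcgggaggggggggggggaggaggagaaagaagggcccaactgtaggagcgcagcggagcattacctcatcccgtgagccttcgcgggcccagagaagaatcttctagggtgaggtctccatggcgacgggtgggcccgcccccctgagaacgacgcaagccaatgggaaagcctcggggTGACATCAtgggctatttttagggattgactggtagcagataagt
Fos: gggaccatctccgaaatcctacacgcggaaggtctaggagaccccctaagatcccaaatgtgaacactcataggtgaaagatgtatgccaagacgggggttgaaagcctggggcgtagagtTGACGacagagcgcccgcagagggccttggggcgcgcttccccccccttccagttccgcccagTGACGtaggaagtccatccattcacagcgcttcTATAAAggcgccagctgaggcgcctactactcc
Fosl2: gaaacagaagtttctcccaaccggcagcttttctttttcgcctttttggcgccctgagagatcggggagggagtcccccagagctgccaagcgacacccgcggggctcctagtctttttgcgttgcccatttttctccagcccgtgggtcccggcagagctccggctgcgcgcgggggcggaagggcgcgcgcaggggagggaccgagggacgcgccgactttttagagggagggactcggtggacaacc

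The Jun window holds TGACATCA, starting 45 bases before the annotated start, and 2.93% of the 32851 windows of the same length in the RefSeq table hold it. The Fos window holds TGACG 2 times and TATAAA 1 time, the latter starting 33 bases before the start; 17.8% and 7.59% of all windows hold these. None of these letters occur in the Fosl2 window, which says only that they are not in these 250 bases. The letters TGANTCA, in 6.75% of all windows, and TGACGTCA, in 1.55%, occur in none of the 3. A match is a description of the sequence, and occupancy was not measured.

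Junb, a Jun family member and an immediate early gene, was above the cerebellum in every tumour at low signals. Its probe set read 213, 63.5, 155 and 66.1 in the medulloblastomas against 24.6 in the P5 cerebellum. Medulloblastomas 1 and 3 were the high ones, and the lowest tumour, at 63.5, was still above the cerebellum, a signal not shown to be above background. The difference was 1.35 ± 0.79 with an adjusted p of 0.499 (limma) and a 95% confidence interval from -0.46 to 3.16. Junb passed the signal filter only through the tumours, and the size of its difference depended on the constant. The difference was 1.85 with a constant of 8, and 0.68 with a constant 4 times the main one of 32.

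Jund, the Jun family member that is usually present without stimulation, was bright and even. Probe set 1449117_at read 5038, 4709, 5298 and 5900.3 in the medulloblastomas against 5989 in the P5 cerebellum. All 4 tumours were below the cerebellum, medulloblastoma 4 by 1.49% of the signal and medulloblastoma 2 by 21.4%. The difference was -0.20 ± 0.22 (limma, adjusted p = 0.723), with a 95% confidence interval from -0.70 to 0.31. Its SD among the tumours was 0.14 on the log2 scale, and 8.34% of tested probe sets varied less. The dim probe set 1440265_at read 90.0, 234, 187 and 201 in the medulloblastomas against 107 in the P5 cerebellum (0.54 ± 0.57, adjusted p = 0.703), with the sign of the first turned in 3 of the 4 tumours.

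Atf3, a stress-induced relative of the Fos family that can pair with Jun proteins, varied most among the tumours of all tested members. It read 38.8, 167, 322 and 202 in medulloblastomas 1 to 4 and 156 in the P5 cerebellum. Medulloblastoma 1 was far below and medulloblastoma 3 above the cerebellum, so the groups overlap. The difference was -0.02 ± 0.80 (limma, adjusted p = 0.994), with a 95% confidence interval from -1.86 to 1.81. The SD among tumours was 0.99 on the log2 scale, above that of 94.9% of tested probe sets. Without medulloblastoma 1 the difference was 0.44, and it was also not called (adjusted p = 0.626).

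Egr1, a zinc finger factor that is not part of AP-1 but is induced by the same stimuli as Fos, lay above the cerebellum in every tumour but did not pass the test. Its probe set read 907, 438, 783 and 585 in the medulloblastomas against 274 in the P5 cerebellum. Medulloblastomas 1 and 3 were highest and 2 was lowest, still 1.60-fold above the cerebellum. The difference was 1.17 ± 0.41 with a 95% confidence interval from 0.22 to 2.11, an unadjusted p of 0.0216 and an adjusted p of 0.307 (limma). Under all alternatives it lay between 0.97 and 1.35 and was not called. Egr1 and Fos, which share inducers, had these differences of 1.17 and -0.02 side by side on the same arrays; the difference between them was not tested.

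**Figure D3:**
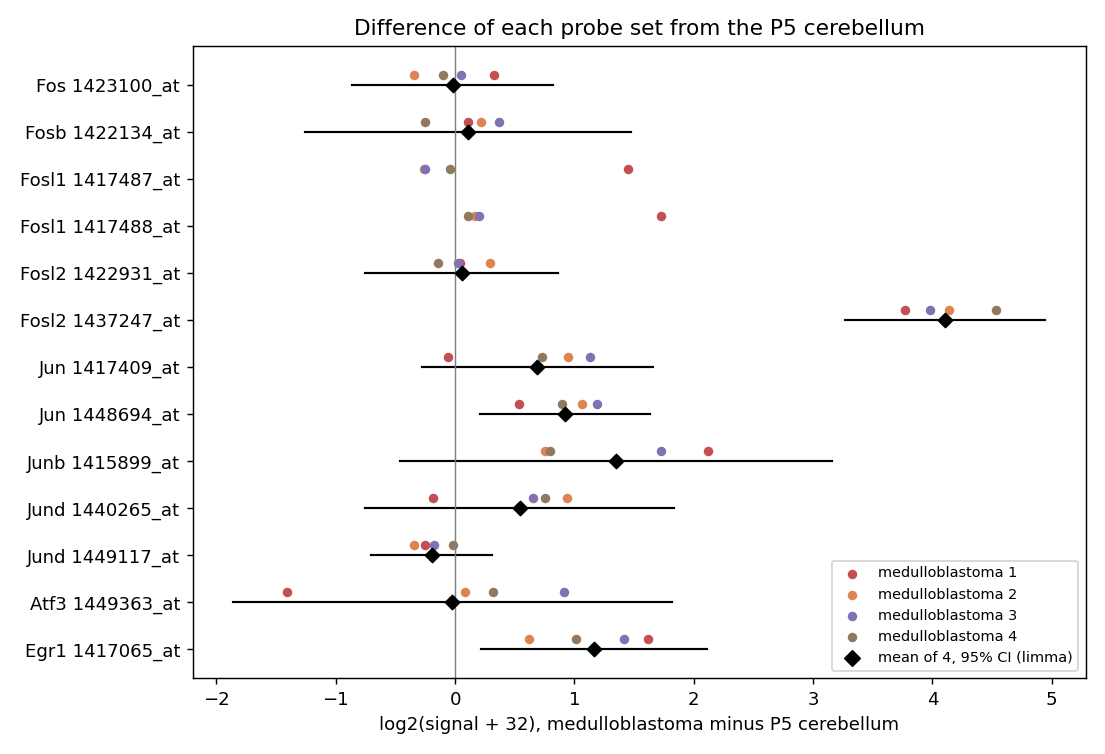
Difference of each probe set from the P5 cerebellum in log2(signal + 32): coloured points are the single medulloblastomas, and black diamonds with lines are the mean and 95% confidence interval from limma for the 11 probe sets tested. The interval lies above 0 for Fosl2 1437247_at (3.27 to 4.94), Jun 1448694_at and Egr1, and of these the test over all probe sets called the first.

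Across the 13 probe sets, all 4 tumours were above the cerebellum for 5 and below it for 1. Among the 11 tested, it was 4 above, where 24.5% of all tested probe sets were, and 1 below, where 28.6% were. At least a 2-fold higher signal in each tumour was seen for Fosl2 1437247_at and Junb, 2 of the 11, against 3.46% of all tested probe sets; at least 2-fold lower signals were seen for 0 of the 11 and for 2.76% of all. Both Fosl2 1437247_at and Junb are among the 11 only through their tumour signals, so their count is no evidence about the members. The same 2 probe sets are among the 4 above the cerebellum, and that count carries the same limit. An unadjusted p under 0.05 was reached by 3 of the 11, against 13.1%. These 3 include Fosl2 1437247_at, so the limit holds there too. The tumours did not share 1 order over the members: medulloblastoma 1 was highest for Fos, Fosl1, Junb and Egr1, and lowest for Jun, Atf3, Fosl2 1437247_at and Jund 1440265_at.

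The genes with the most similar pattern were found by the root mean square distance of the 4 differences from the cerebellum. For Fosl2 1437247_at they were Lhx2 (distance 0.28), Gpnmb (0.36) and Olig3 (0.37), with Lhx2 at 496, 578, 738 and 852 in the medulloblastomas against 13.8 in the P5 cerebellum. No probe set of the 25832 compared lay within 0.25 of Fosl2. For Egr1 they were Zc3hav1 (0.14), Rab3c (0.15) and Ppm1k (0.17), and 17 probe sets lay within 0.25. For Fos they were Ndufb8, Yars and Csnk1g1, but 1018 probe sets lay within 0.25, as many are near 0 in every tumour. These are likenesses over 4 tumours and 1 cerebellum.

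Related genes were described at the brightest tested probe set of each gene, where 0.191% of 14109 genes were called higher and 0.12% lower and the median difference was -0.07. Of 17 partners and relatives of AP-1, 0 were called in either direction, and the median was -0.10. Cebpd, a leucine zipper factor of acute inflammation, read 204, 269, 584 and 840.3 in the medulloblastomas against 84.3 in the P5 cerebellum (1.93 ± 0.68, limma adjusted p = 0.303). Atf5 differed by 1.40 ± 0.46 and Nfe2l2, the regulator of antioxidant genes, by 1.11 ± 0.40, with all 4 tumours above the cerebellum. Bach2, a repressor that competes for AP-1-like sites, was below it in all 4 (-1.25 ± 0.30, adjusted p = 0.155).

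The other Egr and Nr4a genes, immediate early factors with the co-repressors Nab1 and Nab2, held 0 called of 8, with a median of 0.42. Nr4a2, an orphan nuclear receptor, read 454, 539, 518 and 346 in the medulloblastomas against 131 in the P5 cerebellum (1.59 ± 0.37, limma adjusted p = 0.148). Egr3, a close relative of Egr1, lay the other way: 290.4, 216, 181 and 176 in the medulloblastomas against 501 in the P5 cerebellum (-1.13 ± 0.41, adjusted p = 0.314). Nab2, which represses Egr1 and is among its targets, differed by 0.64 ± 0.43. Nr4a3 read 334 and 352 in the ken tumours and 18.7 and 40.9 in the hmk tumours, against 64.9 in the cerebellum. All 4 tumours lay above the cerebellum for 3 of the 8 genes and below for 2, where 25.1% and 30.8% of all genes did.

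Of 35 other immediate early genes 0 were called, and the median was 0.13. Ier5, an early response gene induced by radiation and heat, came nearest, at 3909, 5111, 6482 and 6388 in the medulloblastomas against 1352 in the P5 cerebellum (1.96 ± 0.31, limma adjusted p = 0.0621). Myc read 329, 746, 1333 and 874 in the medulloblastomas against 241 in the P5 cerebellum (1.49 ± 0.61, adjusted p = 0.355). Csrnp1 differed by 1.35 ± 0.48, whereas the stress kinase gene Plk2 lay below the cerebellum in all 4 tumours (-1.70 ± 0.40, adjusted p = 0.151). Dusp1, which encodes a phosphatase that switches off the kinases upstream of AP-1, differed by 0.18, and Zfp36, which promotes decay of early response RNAs, by 0.04.

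Of 29 kinases and factors upstream of AP-1, 0 were called, and the median was -0.04. Creb1, which binds the cyclic AMP response element, was above the cerebellum in all 4 tumours (1.06 ± 0.25, limma adjusted p = 0.154). Crtc1, a coactivator of Creb1, was below it in all 4 (-0.92 ± 0.44). The kinase genes Map3k1 and Map2k6 differed by 0.97 ± 0.57 and 0.87 ± 0.36. Of 19 genes known as AP-1 targets 0 were called, and the median was -0.02. Ccnd1, a cyclin gene that Jun can activate and that is also a Hedgehog target, differed by 2.20 ± 0.51 (adjusted p = 0.149). Vim (-0.99 ± 0.34) and S100a10 (-1.67 ± 0.41) lay below the cerebellum in all 4 tumours, while Lgals3 read 344, 417, 1478 and 905 in the medulloblastomas against 289 in the P5 cerebellum (1.13 ± 0.69).

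**Figure D4:**
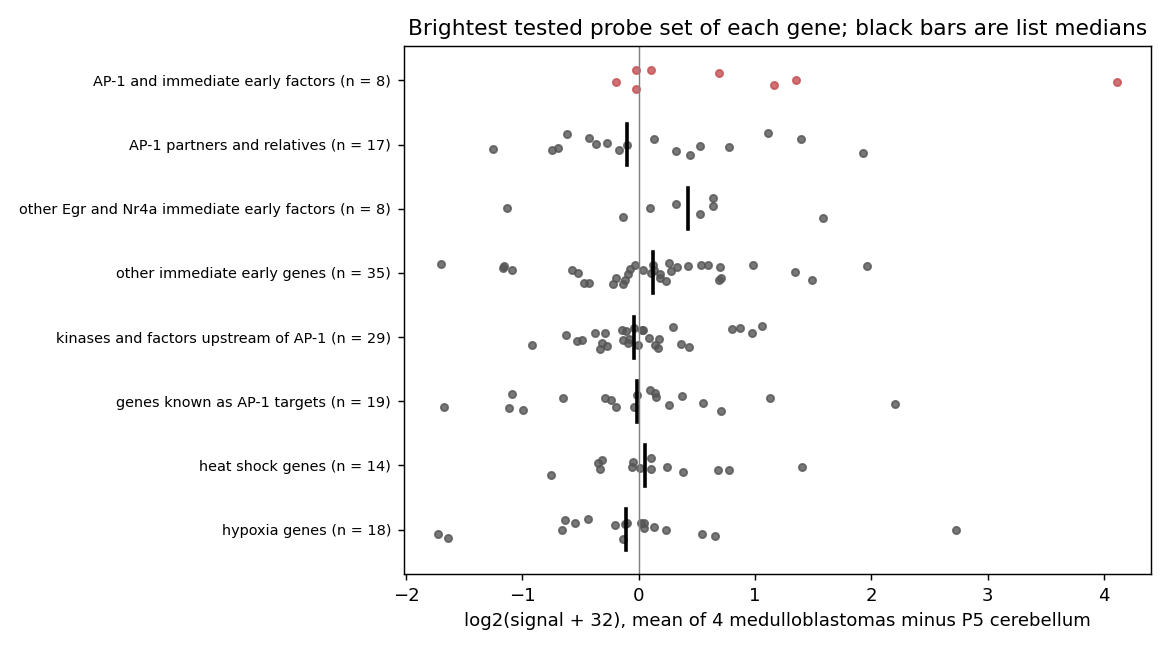
Mean difference of the 4 medulloblastomas from the P5 cerebellum in log2(signal + 32) for the brightest tested probe set of each gene, with 1 point per gene and black bars at the median of each related list. The list medians lie between -0.11 and 0.42. The one point above 4 is Fosl2 1437247_at, which is the brighter Fosl2 probe set only through its tumour signals. Fosl2 1422931_at, not drawn, differed by 0.05.

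Immediate early genes can be on in any cell type, and bulk RNA cannot tell fewer cells of a type from less RNA per cell. For comparison, of all 14109 genes at their brightest tested probe set, 25.1% were above the cerebellum in all 4 tumours and 30.8% below. Of the same genes 0.191% were called higher and 0.12% lower. Markers of microglia and macrophages moved with the tumours. Of 15 tested, 3 were called higher and 0 lower, 12 were above the cerebellum in all 4 tumours, and their summed signal was 25146 to 31707 in the medulloblastomas against 9735 in the P5 cerebellum. Astrocyte and Bergmann glia markers ran the other way, with 2 of 12 called lower, 8 below the cerebellum in all 4 tumours and 3 above it (Aldoc, Slc1a2 and Sox9), and sums of 33066 to 41270 in the medulloblastomas against 80529 in the P5 cerebellum. Endothelial and pericyte markers were below the cerebellum in all 4 tumours for 11 of 12 genes, with sums of 4462 to 6614 in the medulloblastomas against 11847 in the P5 cerebellum. Meningeal and fibroblast markers had 1 of 9 called lower, Col3a1, and summed to 14038 to 19014 in the medulloblastomas against 38866 in the P5 cerebellum. Markers of mature granule neurons summed to 42338 in medulloblastoma 1, against 14979 to 23760 in the other tumours and 16786 in the cerebellum. Of the 7 tested, 0 were called, 4 were above the cerebellum in all 4 tumours and 0 were below it in all 4. The largest differences were 3.99 ± 0.62 for Gabra6, 3.11 ± 0.68 for Cbln3 and 2.19 ± 0.87 for Grin2c. The sum of oligodendrocyte markers was 40351 in medulloblastoma 1, against 18315 to 22503 in the other tumours and 19271 in the cerebellum. Most of it was Mbp, at 28288 in medulloblastoma 1, 7719 to 11445 in the other tumours and 9816 in the cerebellum. Among the tumours, Mobp, Cnp, Cldn11 and Mag were also highest in medulloblastoma 1, whereas Pdgfra, Olig2 and Sox10 were lowest there. Of the 10 oligodendrocyte markers 0 were called, 4 were above the cerebellum in all 4 tumours and 3 below, with Mobp furthest at 3.71 ± 0.58. Purkinje cell and interneuron markers summed to 32327 in medulloblastoma 1, against 8141 to 18542 in the other tumours and 31730.2 in the cerebellum. That sum hides opposite changes. Of the 8 tested, 0 were called, 1 (Pvalb) was above the cerebellum in all 4 tumours and 5 were below it. In medulloblastoma 1 Pvalb read 7201 against 638 in the cerebellum, and Calb1 read 5972 against 9342. Granule neuron precursor markers, the cells from which Hedgehog-driven medulloblastoma arises, summed to 66976 to 76654 in the medulloblastomas against 62094 in the P5 cerebellum, with 6 of 10 above the cerebellum in all 4 tumours, Atoh1 called higher, and Pax6, Neurod1 and Zic1 below the cerebellum in all 4. No marker had a signal of 0, and the part of these cell types in the values of any member was not tested.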

How the data were processed

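Per the labels, total RNA from 4 mouse medulloblastomas and 1 P5 cerebellum was hybridised to Affymetrix arrays, after a Trizol extraction for all but medulloblastoma 4, whose entry names only the manufacturer's procedure. The authors deposited 1 linear intensity for each probe set of each array. MAS5 is named, per the submitters' processing notes, for all arrays but medulloblastoma 3, whose tool is not given in the sources used here. No further scaling was applied. Tumours are numbered in record order, which pairs nothing, and nothing in the labels says which tumours came from separate animals, so the p-values measure the spread between these arrays.

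Probe sets were named through the platform annotation supplied with the values: 34945 had 1 symbol, 932 several and 9160 none, beside 64 controls. The 31416 probe sets with a mean of at least 100 were compared on log2(signal + 32) with limma 3.58.1 in R 4.3.3 (lmFit, eBayes with a variance trend, two-sided, Benjamini-Hochberg over all tested). There were 3 residual and 5.45 prior degrees of freedom. Data of 31416 probe sets with 4 arrays against 1 were simulated in 10 runs, with the number of changed probe sets set to 200. Of probe sets changed by 1 on the log2 scale 3.4% were called, of those changed by 2 it was 42.4% and of those changed by 4 it was 63.4%. There were 8.8 false calls a run on average. These rates belong to that setting, and the number of changed probe sets in the real data is not known. The number of arrays limits the precision; detection calls were not used.

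The members and the 15 related gene lists were chosen with earlier results of these data known, so no list was tested as a set. All member probe sets are given. Of each list, called genes and the 4 other genes with the largest differences could be named. Dusp1, Zfp36, Vim, Hspa1b, Aldoc, Slc1a2, Sox9, Pax6, Neurod1, Zic1, Mbp, Mag, Olig2 and Sox10 were named after their values were seen. Promoter sequences are from RefSeq (GRCm38.p6) and were taken for 7 of the 9 genes.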

Additional observations from a re-analysis of the deposited data

Results flagged for a closer look

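Both Fosl1 probe sets had 1 tumour far from the other 3. At 1417487_at, medulloblastoma 1 stood apart by a gap that made up 0.873 of the range of the 4 tumours on the log2 scale, and at 1417488_at by 0.939, where 0.829 is the critical value at the 95% level. Chance gives such a gap in about 5% of groups of this size, and 13 probe sets were examined. Medulloblastoma 1 read 146 and 130.2 at these probe sets. The probe sets share a gene and an array, so they are not independent of each other. Medulloblastoma 1 also had the highest ratios of 3' to 5' signal, and their part in the Fosl1 values was not tested.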

How the results depend on the processing

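With 1 member probe set called of 66 called in all, the counts moved widely with the arrays used. Without a variance trend 0 members and 0 probe sets were called. The hmk tumours alone gave 3 members and 2517 probe sets, and the ken tumours 0 and 0, where 1433 probe sets were higher and 1511 lower at an unadjusted p under 0.05. Leaving out each tumour gave 0 to 1 members and 0 to 1245 probe sets, the most without medulloblastoma 1; without medulloblastoma 4, where none was called (limma), 1692 probe sets were higher and 1509 lower at an unadjusted p under 0.05. At least 2-fold in each tumour were 2 members and 1953 probe sets, and without a signal filter 14 probe sets were called. The median difference over the 13 member probe sets was 0.54, and 0.25 with a constant 4 times as large. The Fos sign turned with quantile scaling (0.10), equal medians (0.16) and without single tumours (-0.132 to 0.0886). Fosl2 1422931_at turned within the hmk arrays (-0.0572) and without single tumours (-0.0252 to 0.119). Atf3 turned with quantile scaling (0.13), equal medians (0.14), the larger constant (0.0434), the hmk arrays (0.62) and without single tumours (-0.334 to 0.44). The cause was not tested for any of these, and the left-out fits also hold fewer arrays. Of the other members all but the untested Fosl1 1417487_at (-0.19 to 0.59) kept their sign, Fosl2 1437247_at between 2.79 and 4.90. No paired analysis was possible because the cerebellum is a single array.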

Other observations

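Heat shock genes, induced by protein damage, held 0 called of 14, with a median difference of 0.06. Cryab, a small heat shock protein gene of glia and muscle, read 413, 633, 731 and 414 in the medulloblastomas against 181 in the P5 cerebellum (1.41 ± 0.41, limma adjusted p = 0.228). Hsph1 read 5191 in medulloblastoma 1 and 2400.0 to 2589 in the other tumours, against 1737 in the cerebellum. Hspa1b, the heat-inducible HSP70 gene, differed by -0.32 ± 0.52, and medulloblastoma 1 (186) was level with the cerebellum (184) while the other 3 were below it.

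Of 18 genes induced by low oxygen 0 were called, with a median of -0.11. Hk2, the first enzyme of glycolysis in proliferating granule neuron precursors, read 2324, 3924, 5558 and 6449 in the medulloblastomas against 616 in the P5 cerebellum (2.73 ± 0.48, limma adjusted p = 0.0799). Adm and Pdk1 lay below the cerebellum in all 4 tumours, by -1.73 ± 0.80 and -1.64 ± 0.74.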
